A study of Mus musculus with 8 samples.

Results

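The glucocorticoid receptor gene *Nr3c1*, the hormone-activating enzyme gene *Hsd11b1* and 8 classic target genes of the receptor (*Fkbp5*, *Tsc22d3*, *Zbtb16*, *Klf9*, *Sgk1*, *Dusp1*, *Mt1* and *Mt2*) were followed in C3H10T1/2 mesenchymal stem cells (MSCs), a mouse line that forms adipocytes in hormone-containing medium. These 10 genes were picked by symbol out of 41325 gene symbols, to read the response to the hormone of the adipogenic medium in each cell line. RNA-seq was performed on 4 lines, namely control cells (shControl, genotype WT in the labels) and cells stably depleted by shRNA of the histone demethylase KDM4D (shKDM4D), the transcription factor NFIB (shNFIB) or the histone methyltransferase MLL1 (shMLL1). Each line was sequenced once before induction (day 0) and once at day 5, giving 8 libraries. In all 4 lines the induction medium held 1 µM dexamethasone, a synthetic glucocorticoid, with 10 µg/ml insulin and 0.5 mM isobutylmethylxanthine (IBMX), a phosphodiesterase inhibitor that raises cAMP. Dexamethasone and IBMX were given from day 0 to day 2, so the day 5 libraries lie 3 days after the last dexamethasone. Day 0 and day 5 therefore compare cells before the hormone with cells that had received it earlier, together with every other change of differentiation, and the part of dexamethasone in a change cannot be told apart from that of insulin, IBMX and time. The knockdown lines are stably transfected pLKO.1 lines selected with puromycin, made by isolating resistant clones, and the sources used here do not say which clone was sequenced. They also do not say whether the control cells were transfected, selected and cloned in the same way. With 1 library per condition, a difference between lines cannot be told apart from a difference between clones or cultures, or from selection and cloning where control cells are compared.

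Glucocorticoids enter the cell and bind the receptor NR3C1, which is held in the cytoplasm by HSP90 and its co-chaperones. The bound receptor moves to the nucleus, where pairs of receptors bind palindromic response elements and switch on genes, among them several that dampen the hormone signal itself. In cultured preadipocytes a glucocorticoid is a standard part of the induction medium and acts together with cAMP and insulin at the start of differentiation. Cells of mesenchymal origin can also make active hormone from its inert 11-keto form with the enzyme encoded by *Hsd11b1*.

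Expression is given as RPKM, the reads of a gene corrected for its exon length and for the mapped reads of the library, so that levels can be compared between genes. Changes are log2 ratios of RPKM without a pseudocount. A gene is said to have risen or fallen, or to be called, only where the ratio passed 2-fold. The mapped reads per library, recovered from the RPKM steps, lay between 15842221 (shNFIB cells, day 5) and 38202580 (shMLL1 cells, day 0). The intervals printed with ratios are exact 95% intervals from the recovered reads. They cover counting error only and not the spread between cultures, and no p-value is given. Of all genes, 11513 had an RPKM over 1 in at least 1 library and served as the background of expressed genes. All 10 members passed this filter, but *Zbtb16* did so only through shControl cells at day 5, and *Hsd11b1* only through day 5 libraries. The targeted genes *Nfib* (RPKM 9.92 and 17.0 in shControl cells at day 0 and day 5, against 2.31 and 3.38 in shNFIB cells) and *Kmt2a*, encoding MLL1 (5.17 and 5.27, against 2.00 and 1.63 in shMLL1 cells), were lower in their own knockdown lines. *Kdm4d* had 13 reads or fewer in both the shControl and the shKDM4D libraries. Of 6 mesenchymal markers, 5 or 6 had an RPKM over 1 in each library. The missing marker was *Thy1*, with an RPKM of 25.0 and 22.6 in shControl cells against at most 0.14 in shKDM4D and shNFIB cells. Markers of blood, endothelial and epithelial cells summed to at most 1.64, 0.143 and 1.63 RPKM. The summed RPKM of 6 adipocyte markers at day 5 was 763 in shControl, 9.88 in shMLL1, 8.35 in shNFIB and 33.2 in shKDM4D cells, against 3.50 to 8.90 at day 0. At day 5, 6, 2, 1 and 5 of these 6 markers passed an RPKM of 1 in the same order of lines. As these are bulk libraries, fewer cells of a type and less RNA per cell cannot be told apart, and the part of the adipocyte share in the member genes' levels was not tested.

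The start regions of the members were read from the RefSeq promoter table of build GRCm38.p6, in which each window of 300 bases runs from 250 bases before to 50 bases after an annotated start. Windows were used for 8 of the 10 members, 15 in all, since *Sgk1* has 6 and *Tsc22d3* has 3 annotated starts. Both strands were searched for letters that the receptor, the metal-responsive factor MTF1 and the cAMP-responsive factor CREB are known to bind. The full receptor palindrome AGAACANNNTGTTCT was found in 3 of 32851 windows (0.00913%), and 1 of these belonged to *Sgk1*. It is shown because the ratio of *Sgk1* between day 5 and day 0 differed in sign between the lines (capitals mark the palindrome, 189 bases before the start).
Sgk1 start window, chr10:21993640-21993939, plus strand: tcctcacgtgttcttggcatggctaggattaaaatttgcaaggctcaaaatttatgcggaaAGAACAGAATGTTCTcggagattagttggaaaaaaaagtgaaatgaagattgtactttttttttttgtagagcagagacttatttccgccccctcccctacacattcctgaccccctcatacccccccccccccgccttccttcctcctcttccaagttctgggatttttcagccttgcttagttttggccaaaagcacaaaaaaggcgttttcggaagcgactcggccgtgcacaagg
The shorter core GNACANNNTGTNC, which overlaps the palindrome in this window, lay in 0.475% of all windows and 0.300% of the windows of expressed genes. The other member window that held it was that of *Mt1*, 94 bases before the start. The half-site AGAACA, which is part of the palindrome, was in 4 member windows (3 of *Sgk1* and 1 of *Tsc22d3*). Its share was 19.0% of all windows and 12.0% of the windows of expressed genes. The windows of *Mt1* and *Mt2* are shown because these neighbouring genes had similar levels in each library. The capitals mark the metal response core, TGCACNC or TGCGCNC, on either strand.
Mt1 start window, chr8:94178839-94179138, plus strand: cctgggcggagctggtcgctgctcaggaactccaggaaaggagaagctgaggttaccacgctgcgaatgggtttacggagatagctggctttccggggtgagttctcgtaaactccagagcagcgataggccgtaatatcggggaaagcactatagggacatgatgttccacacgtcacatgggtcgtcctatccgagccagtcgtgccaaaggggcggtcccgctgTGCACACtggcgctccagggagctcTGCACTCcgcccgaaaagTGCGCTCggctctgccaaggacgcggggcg
Mt2 start window, chr8:94172368-94172667, plus strand: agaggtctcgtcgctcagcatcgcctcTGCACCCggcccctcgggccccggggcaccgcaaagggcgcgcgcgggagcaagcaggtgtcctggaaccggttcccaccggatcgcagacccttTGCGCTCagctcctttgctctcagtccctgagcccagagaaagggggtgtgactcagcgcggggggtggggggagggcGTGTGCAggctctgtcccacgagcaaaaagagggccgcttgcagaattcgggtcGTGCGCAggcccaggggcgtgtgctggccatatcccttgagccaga
*Mt1* had 3 and *Mt2* had 4 matches to this core. It was found at least once in 25.7% of all windows, 35.9% of the windows of expressed genes and 5 of the 15 member windows. The window of *Dusp1* is shown for the cAMP response element TGACGTCA (capitals, 143 bases before the start), since the medium held IBMX.
Dusp1 start window, chr17:26508423-26508722, minus strand: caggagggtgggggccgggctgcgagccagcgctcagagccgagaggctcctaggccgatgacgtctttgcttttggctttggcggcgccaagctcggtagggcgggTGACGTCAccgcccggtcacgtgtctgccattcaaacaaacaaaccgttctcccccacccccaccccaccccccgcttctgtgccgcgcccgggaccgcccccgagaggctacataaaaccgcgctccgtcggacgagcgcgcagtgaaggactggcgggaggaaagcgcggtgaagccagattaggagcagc
This element was in 1.79% of all windows, in 3.06% of the windows of expressed genes and in no other member window. A match is a description of the letters in a window and not a measured binding site. The RPKM of a gene does not separate its start sites.

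Seen across the 10 genes, 7 rose from day 0 to day 5 in shControl cells and none fell, against 13.0% of expressed genes that rose and 8.56% that fell. In shMLL1 cells the same 7 genes rose (*Hsd11b1*, *Fkbp5*, *Tsc22d3*, *Zbtb16*, *Klf9*, *Mt1* and *Mt2*) and none fell, against 20.4% and 6.89% of expressed genes. In shKDM4D cells 3 rose (*Hsd11b1*, *Tsc22d3* and *Zbtb16*) and none fell, against 12.8% and 8.44%. In shNFIB cells 3 rose (*Hsd11b1*, *Tsc22d3* and *Mt2*) and none fell, against 12.6% and 4.96%. The median log2 change over the members was 1.53 in shControl, 1.58 in shMLL1, 0.62 in shKDM4D and 0.61 in shNFIB cells, against 0.03, 0.17, 0.03 and 0.09 over all expressed genes. Where *Zbtb16* had no read at day 0, a ratio with day 0 set at 3 reads brought the medians of shKDM4D and shMLL1 cells to 0.67 and 1.75. Scaling by median of ratios placed the shMLL1 day 5 library 0.16 above day 0 on the log2 scale. Relative to that shift the same number of members, 7, were called and their median was 1.42. Relative to *Gapdh*, 6 members rose in shKDM4D cells and 1 in shNFIB cells. *Zbtb16* passed the filter on RPKM only through its day 5 level in shControl cells, so its rise there is a description. Without *Zbtb16*, 6, 6, 2 and 3 of the 9 remaining members rose in shControl, shMLL1, shKDM4D and shNFIB cells, and none fell. *Hsd11b1*, counted among these in every line, was at 0.0800 to 0.819 RPKM at day 0 and passed the filter only through day 5 libraries. Its rise is therefore a description as well.

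**Figure D1:**
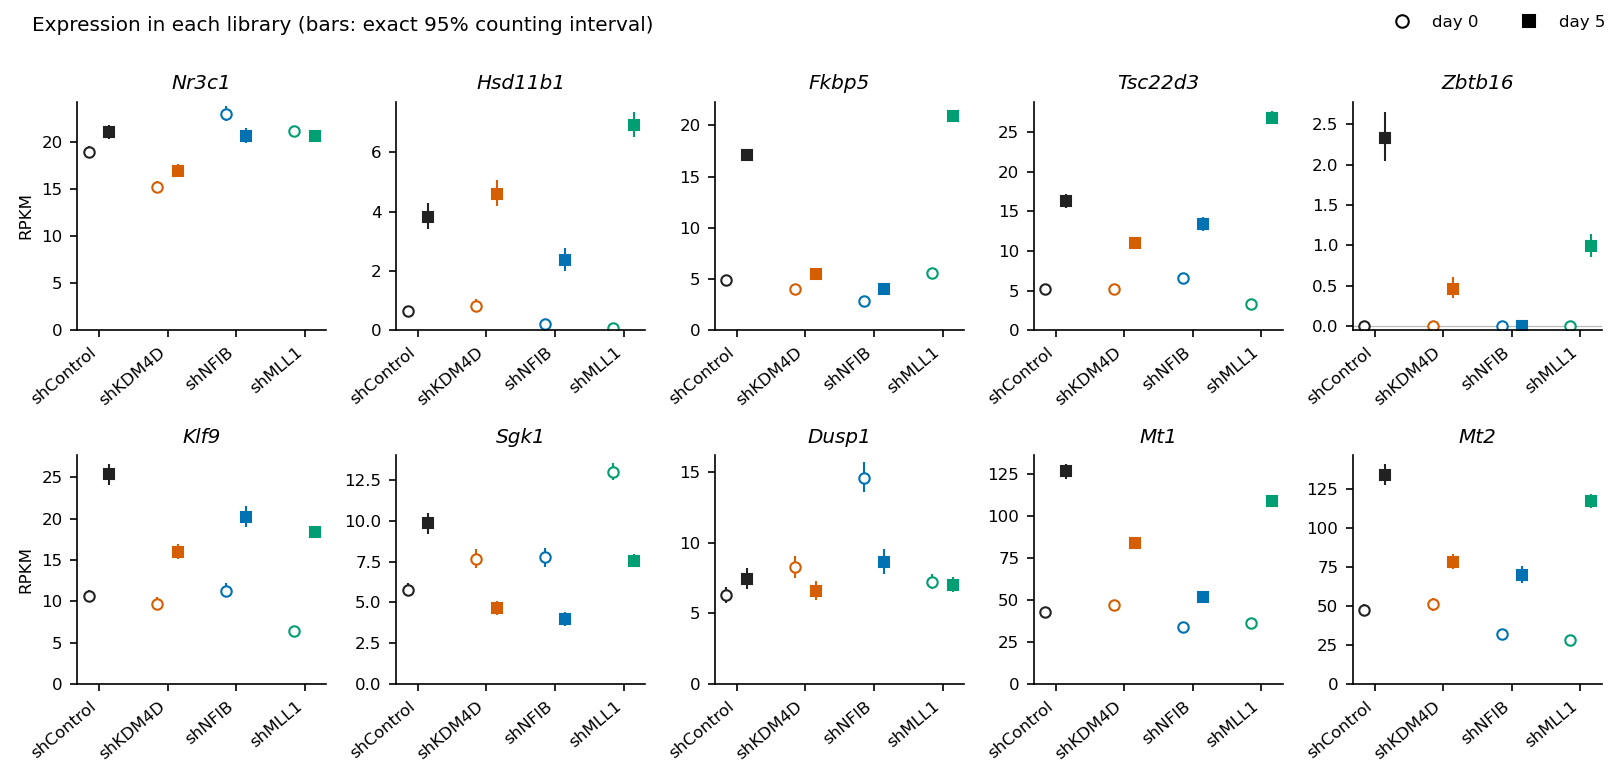
RPKM of the 10 genes in the 8 libraries, 1 panel per gene with its own scale starting at or just below 0. Open circles are day 0, filled squares day 5, and bars exact 95% counting intervals. *Nr3c1* stayed between 15.2 and 23.0 in every library, whereas *Fkbp5* reached 17.1 and 20.9 at day 5 in shControl and shMLL1 cells but only 5.48 and 4.03 in shKDM4D and shNFIB cells.

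*Nr3c1* (chromosome 18, minus strand, protein coding) encodes the receptor itself. Its RPKM at day 0 was 15.2 in shKDM4D, 18.9 in shControl, 21.2 in shMLL1 and 23.0 in shNFIB cells. At day 5 it was 17.0, 21.1, 20.6 and 20.7 in the same order. The 8 values spanned 1.51-fold, the narrowest range of the 10 genes. None of the ratios between days or lines passed 2-fold. The change between the days was 0.16 in shControl cells and 0.16 in shKDM4D cells. It was -0.15 (-0.23 to -0.08) with NFIB depleted and -0.04 (-0.09 to 0.01) with MLL1 depleted. The lowest levels at both days were in shKDM4D cells, with a log2 ratio to shControl cells of -0.32 (-0.39 to -0.24) at day 0 and -0.31 (-0.39 to -0.24) at day 5. At day 5 shNFIB and shMLL1 cells did not differ beyond counting error, with a log2 ratio of shMLL1 to shNFIB cells of -0.01 (-0.08 to 0.06).

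*Hsd11b1* (1:193221634-193264075 of GRCm38, minus strand) encodes 11β-hydroxysteroid dehydrogenase type 1, which regenerates active glucocorticoid. At day 0 it was barely expressed, with 0.819 RPKM in shKDM4D and 0.662 in shControl cells. The RPKM was 0.0800 (13 reads) in shMLL1 and 0.227 (18 reads) in shNFIB cells. At day 5 it was 6.92 in shMLL1, 4.60 in shKDM4D, 3.83 in shControl and 2.36 in shNFIB cells. Every day 5 value lay above every day 0 value. The log2 rise was 2.53 (2.17 to 2.92) in shControl cells, 3.38 (2.67 to 4.17) in shNFIB cells and 2.49 in shKDM4D cells. The largest rise was that of shMLL1 cells, 6.43 (5.65 to 7.35), from the lowest start. It exceeded the rise of shControl cells by 3.90 (3.03 to 4.77), while the rise in shKDM4D cells differed from it by -0.04 (-0.56 to 0.48). In shMLL1 cells, which held the highest level of *Hsd11b1* at day 5, the summed adipocyte marker RPKM was 9.88, and its part was not tested. *H6pd*, which supplies the NADPH for this reductase inside the endoplasmic reticulum, went from 8.26 to 19.3 RPKM in control cells. The pairs of values were 7.03 and 13.7 with MLL1 depleted, 7.51 and 11.9 with KDM4D depleted, and 5.07 and 7.31 with NFIB depleted. As deposited, *H6pd* passed 2-fold in the control line alone, but its log2 change in shMLL1 cells, 0.97, was just under it. In shKDM4D cells the change was 0.66 and that of *Gapdh* was -0.47, so relative to *Gapdh* it passed 2-fold there too. The other genes of that list stayed under an RPKM of 1. *Hsd11b2*, encoding the enzyme that inactivates the hormone, reached at most 0.225, and *Nr3c2*, encoding the mineralocorticoid receptor, at most 0.717.

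*Fkbp5* (17:28399094-28517527, minus strand) encodes FKBP51, a co-chaperone of HSP90 that lowers the affinity of the receptor for its hormone, and is among the most widely used readouts of glucocorticoid action. Its RPKM went from 4.90 at day 0 to 17.1 at day 5 in shControl cells and from 5.55 to 20.9 in shMLL1 cells. It went from 4.03 to 5.48 in shKDM4D cells and from 2.89 to 4.03 in shNFIB cells. Hence day 5 cells of the latter lines were close to the day 0 level of shControl cells. The log2 change was 1.80 (1.71 to 1.90) in shControl cells and 1.91 (1.84 to 1.98) in shMLL1 cells, a difference of 0.11 (-0.01 to 0.23). It was 0.44 (0.31 to 0.58) in shKDM4D and 0.48 (0.31 to 0.65) in shNFIB cells, which is -1.36 (-1.53 to -1.20) and -1.32 (-1.52 to -1.13) relative to shControl cells. Expressed relative to *Gapdh*, the change in shNFIB cells had the opposite sign (-0.08). That in shKDM4D cells was larger on this scale and nearer to that of shControl cells, without passing 2-fold, since *Gapdh* there had a log2 ratio of -0.47 between the days. At day 5 *Fkbp5* was lower than in shControl cells by a log2 ratio of -1.64 (-1.74 to -1.54) in shKDM4D cells and -2.09 (-2.21 to -1.96) in shNFIB cells. In shMLL1 cells the ratio was 0.29 (0.23 to 0.35), or -0.07 relative to *Gapdh*.

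*Zbtb16* (9:48654297-48836222, minus strand) encodes PLZF, a zinc finger repressor that is induced by glucocorticoids in many cell types. At day 0 it was covered by 1 read in shControl cells and by none in the knockdown lines, which allows an RPKM of at most 0.0149 to 0.0304 in those 3 libraries at a limit of 3 reads. At day 5 the RPKM was 2.33 (238 reads) in shControl, 0.988 (199 reads) in shMLL1 and 0.464 (53 reads) in shKDM4D cells. In shNFIB cells no read was found at day 5, which allows an RPKM of up to 0.0358 at the same limit. The 4 lines thus fell in the order shControl, shMLL1, shKDM4D and shNFIB cells, each step being larger than counting error. The log2 rise of shControl cells was 8.36, with an interval from 5.87 to 13.67 because it rests on 1 read at day 0. With the day 0 libraries set at 3 reads, *Zbtb16* was 16.0-fold higher at day 5 in shKDM4D cells and 66.5-fold higher in shMLL1 cells. The exact intervals of these log2 rises begin at 3.65 and 5.74. Against shControl cells at day 5, the log2 ratio was -2.33 (-2.79 to -1.89) in shKDM4D cells and -1.24 (-1.52 to -0.96) in shMLL1 cells. With shNFIB cells set at 3 reads, the level there was 65.0-fold lower, and the exact interval of the log2 ratio ends at -5.71. No fold is given for day 0, where every library was under 3 reads.

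*Tsc22d3* (X:140539528-140600659, minus strand) encodes GILZ, a leucine zipper protein known to carry part of the anti-inflammatory action of glucocorticoids. The RPKM went from 5.22 to 16.2 in shControl cells, from 3.35 to 26.8 in shMLL1 cells, from 5.23 to 10.96 in shKDM4D cells and from 6.57 to 13.3 in shNFIB cells. It passed 2-fold in all 4 lines on the deposited scale. The log2 rise was 1.64 (1.50 to 1.78) in shControl, 3.001 (2.87 to 3.13) in shMLL1, 1.07 (0.90 to 1.23) in shKDM4D and 1.02 (0.87 to 1.18) in shNFIB cells. The intervals of shKDM4D and shNFIB cells reach below 2-fold, and both calls depended on the scale. The rise in shKDM4D cells was 0.94 with 1 added to RPKM and 0.99 without a pair of ribosomal-RNA-like genes. That in shNFIB cells was 0.92 with 1 added, 0.96 with quantile normalization, 0.95 with median-of-ratios scaling, 0.95 without the pair and 0.46 relative to *Gapdh*. In shMLL1 cells the rise exceeded that of shControl cells by 1.36 (1.18 to 1.55), with a lower start at day 0 (-0.64, -0.81 to -0.47) and a higher end at day 5 (0.72, 0.63 to 0.81), neither of which passed 2-fold. *Klf9* (19:23141226-23168134, plus strand), encoding a Krüppel-like factor that is a direct receptor target in many tissues, was at 10.7 RPKM at day 0 and 25.4 at day 5 in shControl cells. It was at 6.43 and 18.4 in shMLL1, 9.72 and 16.0 in shKDM4D, and 11.3 and 20.3 in shNFIB cells. Day 5 exceeded day 0 in each line, and no day 0 value reached the lowest day 5 value. The log2 change was 1.25 (1.13 to 1.37) in shControl cells and 1.52 in shMLL1 cells, whereas it was 0.72 in shKDM4D and 0.84 in shNFIB cells, under 2-fold as deposited. Relative to *Gapdh* the change in shKDM4D cells was 1.19, past 2-fold. The differences from shControl cells were -0.53 (-0.72 to -0.35), -0.41 (-0.59 to -0.23) and 0.27 (0.10 to 0.43) for shKDM4D, shNFIB and shMLL1 cells.

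**Figure D2:**
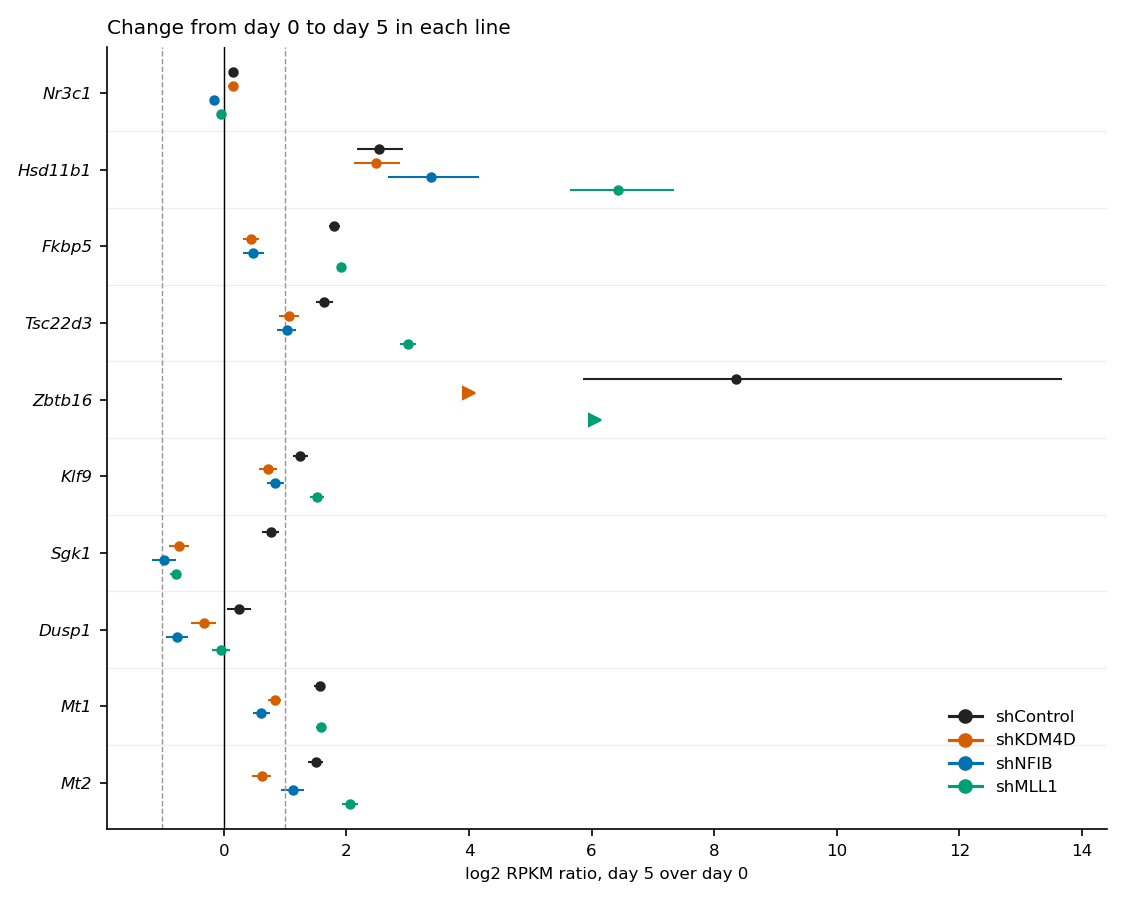
Log2 RPKM ratio of day 5 over day 0 for each gene in the 4 lines. Bars are exact 95% counting intervals and dashed lines mark 2-fold. Arrowheads are ratios of *Zbtb16* with day 0 set at 3 reads, where day 0 had no read. No point is drawn for *Zbtb16* in shNFIB cells, which had no read at either day. *Sgk1* lies at 0.77 in shControl cells and between -0.97 and -0.73 in the 3 knockdown lines.

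*Sgk1* (10:21882184-21999903, plus strand) encodes serum- and glucocorticoid-regulated kinase 1, which acts on ion channels and on signalling downstream of insulin. At day 0 its RPKM was 5.79 in shControl, 13.0 in shMLL1, 7.68 in shKDM4D and 7.76 in shNFIB cells. At day 5 it was 9.84, 7.54, 4.63 and 3.97 in the same order. Control cells were thus the lowest of the 4 lines at day 0 and the highest at day 5. The change between the days was 0.77 (0.63 to 0.91) in shControl cells. It had the opposite sign with KDM4D (-0.73, -0.90 to -0.56), NFIB (-0.97, -1.17 to -0.77) or MLL1 depleted (-0.79, -0.88 to -0.69). None of these passed 2-fold as deposited, and all 4 kept their sign under each scaling tried. In shNFIB cells *Sgk1* passed 2-fold downwards with median-of-ratios scaling (-1.04), quantile normalization (-1.04), without the ribosomal-RNA-like pair (-1.04) and relative to *Gapdh* (-1.53). The differences from the change in shControl cells were larger than 2-fold, at -1.50 (-1.71 to -1.28), -1.73 (-1.97 to -1.50) and -1.55 (-1.72 to -1.38), in that order. They share the shControl libraries. Against shControl cells, *Sgk1* was called higher at day 0 in shMLL1 cells (1.17, 1.05 to 1.29, or 0.96 relative to *Gapdh*), where its day 5 ratio was -0.39 (-0.51 to -0.26). It was called lower at day 5 in shKDM4D cells (-1.09, -1.25 to -0.93, or -0.95 with 1 added to RPKM) and shNFIB cells (-1.31, -1.50 to -1.12). The paralog *Sgk3* passed an RPKM of 1 only in shNFIB cells at day 0 (1.41, against 0.484 to 0.842 in the other libraries), and *Sgk2* was listed at 0 in all libraries.

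*Dusp1* (17:26505590-26562128, minus strand) encodes a phosphatase that switches off MAP kinases and responds to both glucocorticoids and cAMP. Its RPKM was 6.28 at day 0 and 7.44 at day 5 in shControl cells, 7.25 and 7.05 in shMLL1 cells, 8.29 and 6.60 in shKDM4D cells, and 14.6 and 8.64 in shNFIB cells. The day 0 library of shNFIB cells stood above the other 7. It exceeded shControl cells at day 0 by 1.22 (1.05 to 1.39), the only *Dusp1* ratio between the days or to shControl cells past 2-fold as deposited. The log2 ratio of shMLL1 to shNFIB cells at day 0 was -1.01 (-1.16 to -0.86), also just past 2-fold. The change between the days was 0.25 (0.05 to 0.44) in shControl cells, -0.04 in shMLL1 cells and -0.76 (-0.94 to -0.58) in shNFIB cells. In shKDM4D cells it was -0.33 (-0.53 to -0.13), or 0.14 relative to *Gapdh*. At day 5 the lines were close, with log2 ratios to shControl cells of -0.17 (-0.38 to 0.03), 0.21 (0.01 to 0.42) and -0.08 (-0.26 to 0.10) in shKDM4D, shNFIB and shMLL1 cells. Of its 3311 annotated exon bases, 11 overlap the other-strand gene *Ergic1* (RPKM 21.0 to 34.9).

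*Mt1* (8:94179082-94180327) and *Mt2* (8:94172664-94173568) encode metallothioneins, small proteins that bind zinc and copper and are induced by metals as well as by glucocorticoids. They lie 5513 bases apart on the plus strand and had the highest RPKM of the 10 genes in each library. The RPKM of *Mt1* went from 42.9 to 127 in shControl, from 36.5 to 109 in shMLL1, from 47.2 to 84.0 in shKDM4D and from 33.8 to 51.7 in shNFIB cells. That of *Mt2* went from 47.4 to 134, from 28.1 to 117, from 51.0 to 78.2 and from 32.0 to 69.8 in the same order. For both genes all day 5 values lay above all day 0 values, and the order of the lines at day 5 began with shControl and shMLL1 cells. The log2 change of *Mt1* was 1.56 (1.47 to 1.65) in shControl cells and 1.58 in shMLL1 cells, a difference of 0.02 (-0.10 to 0.14). It was 0.83 in shKDM4D and 0.61 in shNFIB cells, under 2-fold as deposited, but 1.30 in shKDM4D cells relative to *Gapdh*. For *Mt2* it was 1.50 (1.37 to 1.63) in shControl, 2.06 in shMLL1, 0.62 (or 1.09 relative to *Gapdh*) in shKDM4D and 1.13 (0.94 to 1.32, or 0.56 relative to *Gapdh*) in shNFIB cells. Against shControl cells at day 5, *Mt1* was called lower in shNFIB cells (-1.29, -1.40 to -1.19), where *Mt2* was close to 2-fold (-0.94, -1.08 to -0.81, or -1.02 with median-of-ratios scaling). The ratio of *Mt1* to *Mt2* RPKM stayed between 0.741 (shNFIB cells, day 5) and 1.30 (shMLL1 cells, day 0). Their annotated transcripts share no identical stretch longer than 20 bases. A further limit is that 73.5% of the exon bases of *Mt2* overlap *Gm45774* on the other strand (RPKM at most 0.252), and whether strand was used in counting is not given in the sources used here. Of the other genes of the metallothionein system, *Mt3* and *Mt4* were listed at 0 in all libraries, while the metal-responsive factor gene *Mtf1* and the zinc exporter gene *Slc30a1* passed 2-fold in none of the 10 comparisons.

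Each knockdown line was then compared with shControl cells at the same day. The comparisons of a day share 1 shControl library, so they are given side by side. At day 0, before the hormone, no member was called higher in shKDM4D cells, *Dusp1* was in shNFIB cells and *Sgk1* was in shMLL1 cells, against 1.98%, 2.95% and 1.67% of expressed genes. *Hsd11b1* was called lower at day 0 in shMLL1 cells (-3.05, -4.02 to -2.19) and in shNFIB cells (-1.55, -2.38 to -0.79, or -0.91 relative to *Gapdh*). The counts of members lower at day 0 were thus 0, 1 and 1 in shKDM4D, shNFIB and shMLL1 cells, against 4.26%, 6.05% and 7.43% of expressed genes. *Zbtb16*, with 1 read against 0, is not resolved at this depth and is not counted. *Fkbp5* had a day 0 ratio of -0.28 (-0.41 to -0.15) in shKDM4D cells, -0.76 (-0.91 to -0.61) in shNFIB cells and 0.18 (0.08 to 0.28) in shMLL1 cells, the last being -0.03 relative to *Gapdh*. The median ratio over the members at day 0 was 0.10, 0.08 and -0.23.

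At day 5 no member was called higher in any knockdown line, against 1.88%, 5.54% and 5.25% of expressed genes in shKDM4D, shNFIB and shMLL1 cells. The members called lower were *Fkbp5*, *Zbtb16* and *Sgk1* in shKDM4D cells (3 of 10, against 4.57% of expressed genes). The same 3 genes and *Mt1* were called lower in shNFIB cells (4 of 10, against 5.67%), and *Zbtb16* alone in shMLL1 cells (1 of 10, against 4.02%). Since *Zbtb16* passed the filter on RPKM only through shControl cells at day 5, its lower level in the other lines is a description, and without it the counts were 2, 3 and 0. The median ratio over the members was -0.63 in shKDM4D cells, -0.70 in shNFIB cells (-0.82 with *Zbtb16* set at 3 reads) and -0.13 in shMLL1 cells, against 0.01, 0.09 and 0.07 over all expressed genes. The members under 2-fold were not uniform. *Tsc22d3* had a ratio of -0.57 (-0.69 to -0.45), -0.28 (-0.41 to -0.16) and 0.72 (0.63 to 0.81) in the 3 lines. *Hsd11b1* had 0.26 (0.05 to 0.48), -0.70 (-0.98 to -0.42) and 0.85 (0.67 to 1.04). *Klf9* was at -0.67 (-0.78 to -0.55), -0.32 (-0.44 to -0.21) and -0.46 (-0.56 to -0.37). Compared directly at day 5, shMLL1 cells exceeded shNFIB cells by 2.37 (2.25 to 2.50) in *Fkbp5*, 1.55 (1.31 to 1.80) in *Hsd11b1* and 1.08 (0.98 to 1.18) in *Mt1*.

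**Figure D3:**
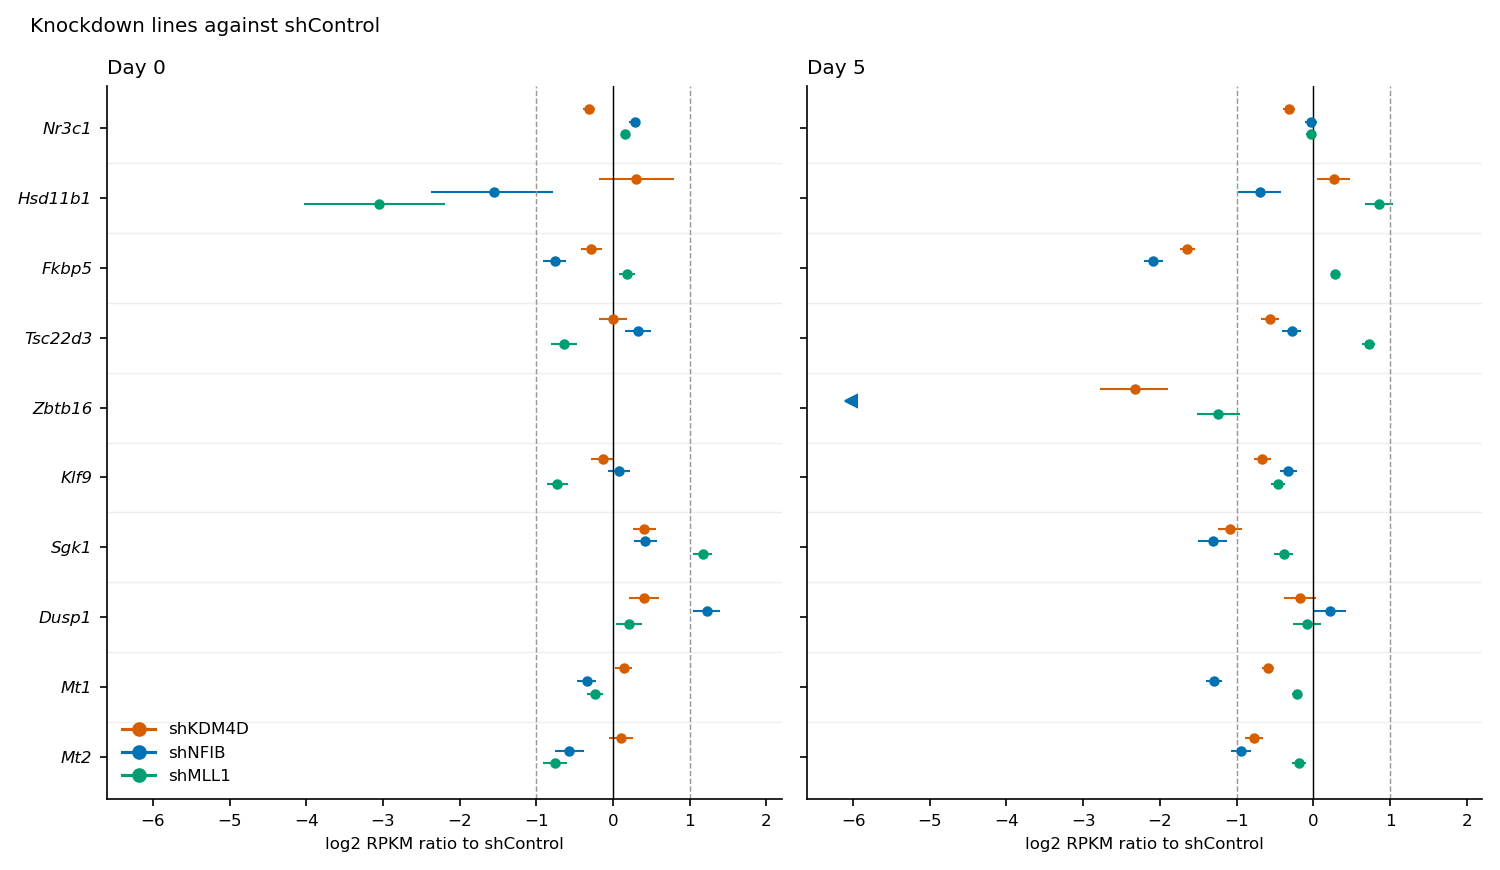
Log2 RPKM ratio of each knockdown line to shControl cells at day 0 (left) and day 5 (right). Bars are exact 95% counting intervals, the arrowhead is the bound for *Zbtb16* in shNFIB cells, dashed lines mark 2-fold, and *Zbtb16* at day 0 is not drawn. *Fkbp5* lies within 2-fold of shControl cells in all lines at day 0 and at -1.64 and -2.09 in shKDM4D and shNFIB cells at day 5.

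A longer list of genes known to be induced by glucocorticoids was counted whole. Of 16 genes, 15 were expressed. From day 0 to day 5, 12 rose in shControl, 10 in shMLL1, 9 in shKDM4D and 7 in shNFIB cells, and none fell in any line, against 13.0%, 20.4%, 12.8% and 12.6% of expressed genes that rose. The median changes were 1.83, 1.46, 1.05 and 0.91, against 0.03, 0.17, 0.03 and 0.09 over all expressed genes. The largest changes included *Rgs2*, encoding a regulator of G protein signalling, which went from 2.82 to 52.2 RPKM in shControl cells and from 2.34 to 87.5 in shMLL1 cells. *Lcn2*, encoding lipocalin 2, went from 2.68 to 44.3 in shControl cells and from 1.82 to 15.6 in shNFIB cells. *Glul*, encoding glutamine synthetase, went from 9.22 to 132 RPKM in shControl cells and from 13.4 to 72.9 in shKDM4D cells. Against shControl cells at day 5, 3 of the 15 were lower in shMLL1, 5 in shKDM4D and 7 in shNFIB cells, against 4.02%, 4.57% and 5.67% of expressed genes, and 1 was higher (*Nfkbia*, in shNFIB cells). The medians were -0.33, -0.62 and -0.89, against 0.07, 0.01 and 0.09. *Pdk4*, encoding a kinase that restrains glucose oxidation, was at 12.0 RPKM in shControl cells at day 5, and at 5.60, 3.27 and 1.20 in shMLL1, shKDM4D and shNFIB cells. *Angptl4*, encoding a secreted inhibitor of lipoprotein lipase, was at 8.72 RPKM in shControl cells at day 5 and at 2.56, 0.915 and 1.44 in the same knockdown lines. At day 0 it was at 1.38 in shControl cells and at 1.82, 0.156 (10 reads) and 1.14 in these lines. Its log2 change between the days was 2.66 in shControl, 2.55 (1.58 to 3.68) in shKDM4D and 0.34 in shNFIB cells. *Pdk4* and *Angptl4* are also known targets of PPAR factors.

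**Figure D4:**
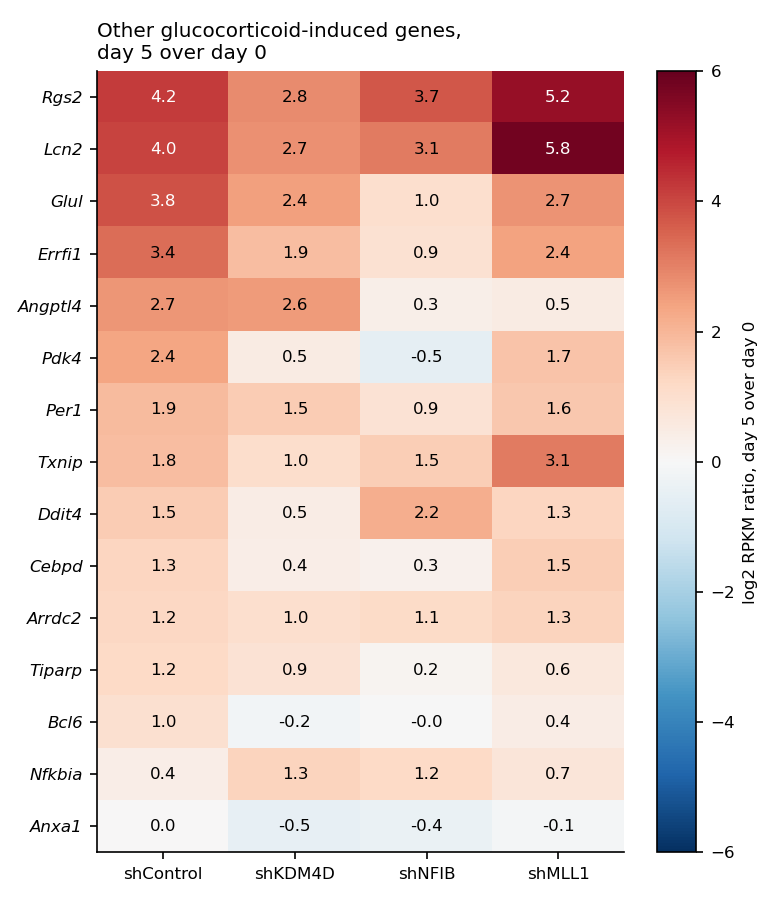
Log2 RPKM ratio of day 5 over day 0 for the 15 expressed genes of the longer list (rows, ordered by the change in shControl cells) in the 4 lines (columns), with the value printed in each cell and red for higher at day 5. *Rgs2* and *Lcn2* rose in all 4 lines, while *Glul* went from 3.84 in shControl cells to 1.01 in shNFIB cells.

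None of 7 receptor chaperone genes passed 2-fold in any of the 10 comparisons, and their median change from day 0 to day 5 was -0.58 in shControl, -0.69 in shMLL1, -0.48 in shKDM4D and -0.19 in shNFIB cells, against 0.03, 0.17, 0.03 and 0.09 over all expressed genes. Relative to the median-of-ratios shift, 2 of them passed 2-fold downwards in shMLL1 cells. Of 6 coregulator genes, *Nrip1*, encoding the corepressor RIP140, rose from 2.37 to 5.81 RPKM in control cells. It was called lower in shNFIB than in shControl cells at day 5 (2.24 RPKM), and no other ratio of this list passed 2-fold. Of 6 inflammatory genes known to be repressed by glucocorticoids, *Ptgs2*, encoding cyclooxygenase 2, fell in all 4 lines, from 11.2 to 2.39 RPKM in shControl cells. *Vcam1* rose in all 4 lines, from 11.8 to 24.1 RPKM in shControl cells. The list as a whole did not fall, with 1, 2, 1 and 3 genes higher and 1, 1, 2 and 1 lower at day 5 than at day 0 in shControl, shMLL1, shKDM4D and shNFIB cells, where 13.0%, 20.4%, 12.8% and 12.6% of expressed genes rose and 8.56%, 6.89%, 8.44% and 4.96% fell. *Il6* was among those higher in shMLL1 cells (0.119 to 0.702 RPKM) and lower in shKDM4D cells (0.759 to 0.152 RPKM), under an RPKM of 1 at both days. At day 5, 4 of the 6 were higher in shNFIB than in shControl cells, against 5.54% of expressed genes. One of these, *Il6*, passed an RPKM of 1 only in the shNFIB libraries (2.69 and 1.56), so that it had to differ. Among the others were the chemokine genes *Ccl2* (249 against 75.6 RPKM) and *Cxcl1* (140 against 43.8 RPKM). Before the hormone, at day 0, 3 of the 6 were already higher in shNFIB than in shControl cells (*Il6*, *Ccl2* and *Ptgs2*), against 2.95% of expressed genes. *Ccl2* was then at 186 against 75.7 RPKM and *Cxcl1* at 32.0 against 22.9 RPKM. At day 5 none of the 6 was called in shKDM4D cells, and 1 was higher and 1 lower in shMLL1 cells. The 1 higher was *Il6*, at 0.702 against 0.0852 RPKM (65 against 4 reads), both under an RPKM of 1. Of 7 genes known to be induced by cAMP, 5 were expressed. From day 0 to day 5, 2, 2, 2 and 1 of them rose and 1, 1, 0 and 0 fell in the 4 lines in the same order, beside the same shares of expressed genes. *Nr4a1*, encoding an orphan nuclear receptor, went from 1.13 to 6.75 RPKM in shControl cells and was called lower in shNFIB cells at day 5 (2.37 RPKM).

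The genes whose levels across the 8 libraries were most like those of a member were named by Pearson's r of log2(RPKM + 0.1), for the 5 members whose range was at least 2 on that scale. The 8 points share the contrast of the days and the libraries' depths, and 10996 genes were compared, so that high values arise in many genes. For *Zbtb16* the nearest were *Fam83a* (0.99), *Lpin1* (0.98) and *Errfi1* (0.97). For *Fkbp5* they were *Gm20503* (0.99), *Poli* (0.97) and *Galns* (0.97). For *Hsd11b1* they were *Dcaf6*, *Erlec1* and *Hps4* (all 0.99). For *Tsc22d3* they were *Gm14326* (0.99), *Hscb* (0.99) and *Zfp119a* (0.98), and for *Mt2* they were *Txnip*, *Decr1* and *Rwdd2a* (all 0.99). *Errfi1* and *Txnip* are also on the longer list of glucocorticoid-induced genes. Between the members, the closest pair was *Zbtb16* and *Mt1* (0.96), followed by *Mt1* and *Mt2* (0.96). *Zbtb16* had at most 1 read in the day 0 libraries and in shNFIB cells at day 5. Its values there are set by the added 0.1, so its r values and this order depend on that constant.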

How the data were processed

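The authors deposited 1 table per library with RPKM values, after mapping the reads to GRCm38 in CLC Genomics Workbench 11.0.1. A mismatch cost 2 and a gap base 3, and both the length and the similarity fraction were 0.8. The kit is named as stranded in the study's methods, but the strand setting of the counting is not given in the sources used here. Reads were recovered as RPKM times exon length (GENCODE M21) over the value of 1 read, which gave whole reads (within 0.02) for 96.0% to 96.4% of the values from 1 to 1000 reads. *Nr3c1*, *Klf9* and *Dusp1* needed exon lengths of 7425, 3263 and 2697 bases in place of the annotated 7684, 4815 and 3311. Intervals are exact conditional Clopper-Pearson intervals, and those of differences between changes use Poisson variances on the log scale. The scripts (Python 3.11.15, numpy 2.4.6, pandas 2.3.3, scipy 1.17.1) were tested on simulated data. The members and all lists were chosen with earlier results of these data known. The text names all 10 members and, of each of 8 lists holding 51 genes, up to 3 genes with the largest difference of log2(RPKM + 1) in a comparison. *H6pd*, *Hsd11b2*, *Nr3c2*, *Mt3*, *Mt4*, *Sgk2* and *Nfkbia* were named to account for their lists, and *Gapdh*, *Ergic1* and *Gm45774* as checks. The alternatives were pseudocounts of 0.1 and 1, median-of-ratios scaling, quantile normalization, the ratio to *Gapdh*, leaving out a pair of ribosomal-RNA-like genes and, for the background, a filter at an RPKM of 2.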

Additional observations from a re-analysis of the deposited data

Results flagged for a closer look

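Results were set apart where the change from day 0 to day 5 had opposite signs in shControl cells and in a knockdown line, with both counting intervals excluding 0. With 1 library per condition the differences were not tested against the spread between cultures. *Sgk1* met this in all 3 knockdown lines, with a log2 change of -0.97 in shNFIB, -0.79 in shMLL1 and -0.73 in shKDM4D cells against 0.77 in shControl cells. *Dusp1* met it in shKDM4D cells (-0.33) and shNFIB cells (-0.76) against 0.25 in shControl cells, but the sign in shKDM4D cells turned (0.14) relative to *Gapdh*. *Nr3c1* met it in shNFIB cells (-0.15) against 0.16 in shControl cells. Leaving out the ribosomal-RNA-like pair moved the changes in shControl cells by -0.11. The intervals there began at 0.09 for *Nr3c1* and 0.05 for *Dusp1*, so neither gene met the rule on that scale. None of the flagged changes passed 2-fold as deposited. In shNFIB cells *Sgk1* did so with median-of-ratios scaling (-1.04), quantile normalization (-1.04), without the ribosomal-RNA-like pair (-1.04) and relative to *Gapdh* (-1.53), and *Dusp1* relative to *Gapdh* (-1.32).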

How the results depend on the processing

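No paired analysis was possible because each condition has 1 library and the labels carry no replicate numbers. All 29 ratios past 2-fold between the days or to shControl cells kept their sign under the 6 alternatives of scale and pseudocount. Of these, 29 were still past 2-fold with 0.1 added to RPKM, 23 with 1 added, 28 with median-of-ratios scaling, 27 with quantile normalization, 25 relative to *Gapdh* and 27 without the ribosomal-RNA-like pair, which held 3.07% to 10.5% of the mapped reads. Among the 82 of 93 ratios whose interval excluded 0, 9 changed sign, each of them relative to *Gapdh*, and 5 of these 9 are not given in the text above, namely *Mt1* in shKDM4D (-0.26) and shNFIB cells (0.30), *Mt2* in shNFIB cells (0.07), and *Nr3c1* (-0.05) and *Dusp1* (-0.00) in shMLL1 cells, all against shControl cells at day 0. *Gapdh* itself had a log2 ratio between the days of 0.12 in shMLL1, -0.47 in shKDM4D and 0.56 in shNFIB cells, and its ratio to shControl cells was 0.21, 0.40 and -0.64 in these lines at day 0 and 0.36 in shMLL1 cells at day 5. Leaving out the ribosomal-RNA-like pair moved the changes between the days by -0.11 in shControl and by -0.11 in shMLL1 cells. From day 0 to day 5, the count of members that rose in shKDM4D cells, 3, became 1 with 1 added and 6 relative to *Gapdh*. In shNFIB cells the 3 that rose became 1 relative to *Gapdh*, and the 0 that fell became 1 with quantile normalization, 1 with median-of-ratios scaling, 1 without the pair and 2 relative to *Gapdh*. The counts of members lower than in shControl cells at day 0 take in *Zbtb16* here, with 1 read against 0, which the counts given above leave out. In shKDM4D cells (1 with *Zbtb16*) they were 0 with 0.1 and 0 with 1 added. In shNFIB cells (2 with *Zbtb16*) they were 1 with 0.1 added, 0 with 1 added, 1 with quantile normalization and 1 relative to *Gapdh*, and in shMLL1 cells (2 with *Zbtb16*) 1 with 0.1 and 0 with 1 added. The 1 called higher at day 0 became 2 in shNFIB and 0 in shMLL1 cells relative to *Gapdh*. At day 5 the 1 called lower in shMLL1 cells became 0 with 1 added. The cause was not tested, except that an added constant shrinks the ratios of *Zbtb16* and *Hsd11b1*, whose levels are near or below it. Levels under 3 reads, such as *Zbtb16* at day 0, are not resolved at this depth.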
